A study of Mus musculus with 19 samples.

Results

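The genes described here encode the subunits and close partners of the proteasome, chosen as all symbols of the deposited RNA table that read Psm, 1 letter of a to g, and a number. The rule found 48 of 24016 genes. By known role they are 7 alpha and 7 constitutive beta subunits of the core, 3 immunoproteasome subunits, 2 tissue-specific core subunits, 6 ATPases and 3 other subunits of the base, 8 lid subunits, 4 core and 3 base assembly factors, 4 activators and 1 inhibitor. An expression level of at least 1 FPKM (fragments per kilobase of transcript, scaled to library depth) in at least 1 library was needed for a test, which 46 of the 48 reached. Psmb8 and Psmb11 did not.

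The proteasome is the protease that degrades most ubiquitin-tagged proteins in the cytosol and nucleus. Its barrel-shaped core is built of rings of alpha subunits, which gate the entry, and rings of beta subunits, of which Psmb6, Psmb7 and Psmb5 carry the active sites. A regulatory particle caps the barrel: its base unfolds substrates with a ring of ATPases, and its lid removes ubiquitin. In immune cells and after interferon, Psmb9, Psmb10 and Psmb8 replace the constitutive active subunits and favour peptides for display on MHC class I. Embryonic stem cells are known for high proteasome activity.

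The series holds 19 samples of mouse cells and asks what the nucleoporin Nup153, a protein of the nuclear pore basket, does in embryonic stem cells (ESC). RNA was sequenced in 5 libraries, made strand-specific from polyadenylated RNA. Neural progenitors (NeuP), with 2 libraries called replicates 1 and 2, were derived through embryoid bodies and Noggin in N2 medium and grown with FGF2 and EGF. The labels give them no hairpin and no cell line. The Nup153 knockdown has 2 libraries of E14 ESC, with 1 lentiviral hairpin each, called #2 and #4. The control has 1 library of E14 ESC with a non-target hairpin. Knockdown and control ESC were grown on irradiated mouse embryonic fibroblasts and selected with puromycin. The NeuP cells differ from the control in hairpin and selection as well as in cell type, and these cannot be told apart. Nothing in the labels says that libraries stem from separate cultures. The p-values then speak only for the variation among these libraries, which may be technical.

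Library depth, recovered from the table, ran from 24.3 to 32.2 M fragments. Nup153 was at 20.9 and 17.4 FPKM in hairpins #2 and #4, against 39.4 FPKM in the control (log2 change -1.01, adjusted p = 0.897, limma with Benjamini-Hochberg adjustment), and at 12.8 and 29.1 FPKM in NeuP replicates 1 and 2. The 6 ESC markers summed to 113 and 87.7 FPKM in NeuP, nearly all of it Sox2, and to between 1467 and 1615 FPKM in the 3 ESC libraries. Sox2 went the other way from these sums, at 110 and 84.2 FPKM in NeuP and 49.9 to 75.1 FPKM in ESC. The 6 neural progenitor markers summed to 3019 and 3866 FPKM in NeuP and to between 9.90 and 16.9 FPKM in ESC. Fabp7 alone was at 2454 and 3143 FPKM in NeuP. Of the same list, Sox1 did not separate the groups, at 2.16 and 1.82 FPKM in NeuP and 0.948 to 1.84 FPKM in ESC. The 7 fibroblast markers summed to 39.0 and 95.1 FPKM in NeuP and to between 5.84 and 9.88 FPKM in ESC, where Lum was at 0 in 3 of 3 libraries. Members of that list went both ways, since Col1a1 was at 0.375 and 1.53 FPKM in NeuP and at 1.82 to 4.77 FPKM in ESC, and Col1a2 at 0.012 and 0.235 FPKM in NeuP and at 1.11 to 2.79 FPKM in ESC. Their part in the results was not tested.

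Within a library the constitutive subunits differed in RNA level, although the subunits of the core enter the particle in equal numbers, as do those of the base and lid. Levels are FPKM and so are per length. Among the 14 core subunits the median was 69.8 and 93.5 FPKM in NeuP replicates 1 and 2, 128 and 130 FPKM in hairpins #2 and #4, and 126 FPKM in the control. Their coefficient of variation ran from 56.5% to 68.4% over the 5 libraries. The 9 base subunits were closer to each other, with a coefficient of variation of 20.6% to 27.4%, and the 8 lid subunits lay between these at 39.0% to 49.6%.

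Psma3, an alpha subunit, was the lowest core subunit in every library, at 3.71 and 6.998 FPKM in NeuP, 6.11 and 4.16 FPKM in hairpins #2 and #4, and 7.20 FPKM in the control. Psma6, also an alpha subunit, stood near the top of the core, at 105 and 155 FPKM in NeuP, 166 and 185 FPKM in the hairpins, and 187 FPKM in the control. The highest base subunit of the control was the ATPase Psmc6, at 64.6 and 103 FPKM in NeuP, 110 and 119 FPKM in the hairpins, and 135 FPKM in the control. The ATPase Psmc4 was the lowest of the base in the control, at 41.1 and 71.4 FPKM in NeuP, 60.01 and 68.6 FPKM in the hairpins, and 59.3 FPKM in the control. In the lid, Psmd11, a scaffold subunit, was lowest in every library, at 12.8 and 21.4 FPKM in NeuP, 30.9 and 33.4 FPKM in the hairpins, and 31.8 FPKM in the control. Psmd8, another lid subunit, was highest in the control at 161 FPKM, with 64.3 and 96.1 FPKM in NeuP and 119 and 126 FPKM in the hairpins. Among assembly factors, Psmg1, a chaperone of the alpha ring, was highest in the control. It was at 10.4 and 25.7 FPKM in NeuP, 37.1 and 37.8 FPKM in the hairpins, and 37.7 FPKM in the control. Psmd9, a chaperone of the base, was the lowest, at 8.40 and 6.86 FPKM in NeuP, 6.30 and 6.27 FPKM in the hairpins, and 5.69 FPKM in the control. The table holds 1 transcript per gene, and RefSeq names pseudogenes for Psma5, Psmb5, Psmb6 and Psmb7, so the levels of these 4 genes are uncertain where reads were shared with a copy. Psma4, Psmd1 and Psme1 overlap a gene on the other strand and Psmb5 a microRNA gene on its own strand, and whether counting used the strand is not stated.

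**Figure D1:**
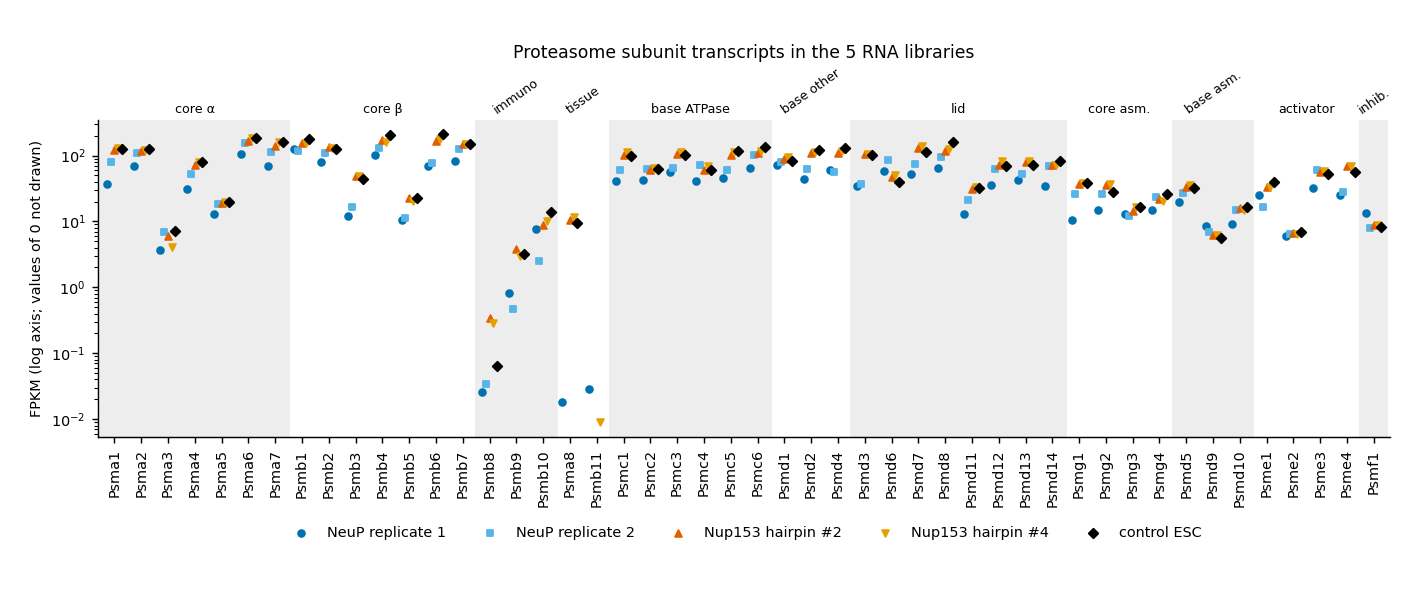
RNA level of the proteasome genes in each library, in FPKM on a log axis, with genes side by side by subunit class and 1 point per library (values of 0 are not drawn). Base subunits lie close together, core subunits range from 3.71 FPKM (Psma3, NeuP replicate 1) to 212 FPKM (Psmb6, control), and Psmb8 and Psmb11, and Psma8 in NeuP, lie below 1 FPKM.

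The comparison of NeuP with control ESC asked how subunit RNA differs after neural differentiation. Of 46 tested genes, 10 were lower in NeuP (adjusted p under 0.05, limma with Benjamini-Hochberg adjustment over 13750 genes) and 0 were higher. Of all genes tested, 24.9% were lower and 18.3% higher, so the 10 genes, 21.7% of the family, were called lower about as often as genes at large. At an unadjusted p under 0.05, 17 genes of the family were lower (30.9% of all genes) and 0 higher (22.8%). The voom test on recovered reads called 9 lower (23.8% of all genes) and 0 higher (19.0%). The median log2 difference of the family was -0.70, against -0.26 for all genes tested. The count called lower changed when single libraries were left out, although leaving out a hairpin alters the estimate of spread and not the differences. It was 1 without hairpin #2 (all genes 11.0%) and 1 without hairpin #4 (10.9%), and Psma8 was that gene both times. It was 27 without NeuP replicate 1 (43.1%) and 39 without NeuP replicate 2 (48.2%). Called higher were 0 without hairpin #2 (all genes 2.32%), 0 without hairpin #4 (2.31%), 1 without NeuP replicate 1 (34.1%) and 3 without NeuP replicate 2 (33.6%). In bulk RNA, fewer cells of a type and less RNA per cell cannot be told apart.

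Both NeuP libraries lay below all 3 ESC libraries for 38 of 46 genes (82.6%), against 46.4% of all genes tested. Both lay above them for 2 genes, Psmd6 and Psmd9 (4.35%), against 31.4% of all genes. This count moved with the scaling and with transcript length, in alternatives added after the data had been seen. Below all 3 ESC libraries were 26 genes (all genes 41.0%) after scaling by the median of ratios, 24 (39.4%) after quantile normalization and 20 (47.5%) once a trend of the difference with length was removed. Proteasome transcripts are short, with a median of 1309 bases, against 2695 bases for all genes tested. With that trend removed the family's median difference was -0.31, against -0.27 for all genes. The 2 NeuP libraries were also unequal. Replicate 1 was below replicate 2 for 37 of 46 genes (80.4%), against 53.1% of all genes.

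**Figure D2:**
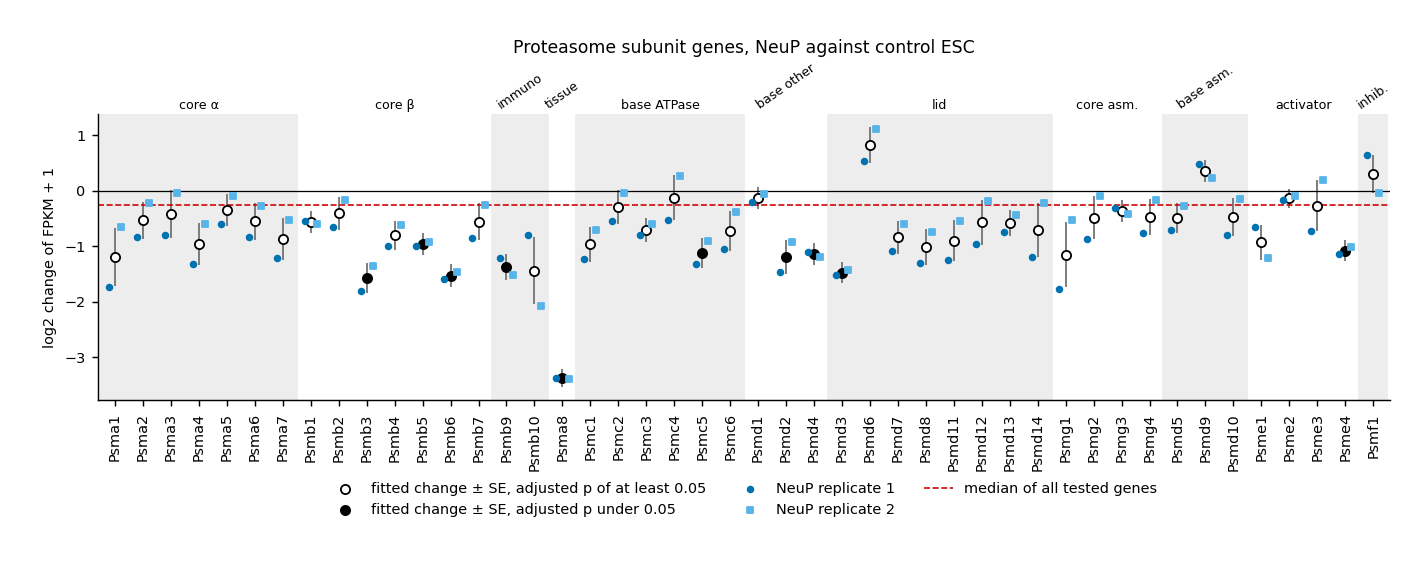
Difference between NeuP and control ESC in log2(FPKM + 1) for each tested gene, by class, with the fitted value (filled where called), its standard error as a bar, the 2 NeuP libraries as coloured points and the median of all genes tested as a dashed line. Most genes lie below 0 and Psmd6, Psmd9 and Psmf1 above it, and replicate 1 lies lower than replicate 2 for 37 of 46 genes.

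The active-site subunits are shown with their promoters because Polycomb peaks, described further on, were found at Psmb8 and Psmb9 and not at Psmb5 or Psmb6. Each sequence is the 250 bases before the gene start from RefSeq (GRCm38.p6), 5′ to 3′ on the gene's strand, with CG dinucleotides in capitals. Psmb8 lies at chr17:34197945-34198194 (plus strand), Psmb9 at chr17:34187331-34187580 (minus strand), Psmb5 at chr14:54617996-54618245 (minus strand) and Psmb6 at chr11:70525107-70525356 (plus strand).
Psmb8: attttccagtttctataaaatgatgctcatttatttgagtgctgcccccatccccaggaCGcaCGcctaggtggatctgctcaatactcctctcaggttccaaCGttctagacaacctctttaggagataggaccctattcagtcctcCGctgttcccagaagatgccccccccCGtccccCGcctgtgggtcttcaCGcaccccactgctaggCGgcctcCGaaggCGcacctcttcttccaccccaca
Psmb9: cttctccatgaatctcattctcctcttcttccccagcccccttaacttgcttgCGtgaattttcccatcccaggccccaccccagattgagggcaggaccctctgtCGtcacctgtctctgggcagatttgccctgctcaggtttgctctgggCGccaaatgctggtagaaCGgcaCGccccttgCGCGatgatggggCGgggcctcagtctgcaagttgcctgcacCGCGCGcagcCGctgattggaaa
Psmb5: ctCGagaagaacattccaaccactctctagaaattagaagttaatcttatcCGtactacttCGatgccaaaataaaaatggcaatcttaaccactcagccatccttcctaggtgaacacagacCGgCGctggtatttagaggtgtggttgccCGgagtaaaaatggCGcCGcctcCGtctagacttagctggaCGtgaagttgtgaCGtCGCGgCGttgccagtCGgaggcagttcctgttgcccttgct
Psmb6: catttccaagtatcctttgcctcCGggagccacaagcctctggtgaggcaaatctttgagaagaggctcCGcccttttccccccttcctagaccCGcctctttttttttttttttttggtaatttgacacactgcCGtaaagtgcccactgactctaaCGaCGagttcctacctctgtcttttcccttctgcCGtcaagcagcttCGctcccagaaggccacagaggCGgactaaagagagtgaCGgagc
These windows hold 10 CG dinucleotides in Psmb8, 12 in Psmb9, 15 in Psmb5 and 10 in Psmb6. Over 300 bases, from 250 before to 50 after the start, the ratio of observed to expected CG was 0.52 for Psmb8, 0.60 for Psmb9, 1.00 for Psmb5 and 0.73 for Psmb6. It was 0.19 for Psmb10, the inducible subunit with no Polycomb peak within 2 kb of its start, so the ratio did not separate genes with and without a peak. Its median was 0.73 over 43 promoters of 40 family genes and 0.38 over 32808 other promoters.

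Psmb6, the constitutive caspase-like subunit, had 69.6 and 76.5 FPKM in NeuP, 168 and 178 FPKM in hairpins #2 and #4, and 212 FPKM in the control. Both NeuP libraries lay far below every ESC library, and the gene fell in NeuP (log2 -1.53 ± 0.21 SE, adjusted p = 0.0117, limma with Benjamini-Hochberg adjustment). Psmb5, the constitutive chymotrypsin-like subunit, had 10.7 and 11.4 FPKM in NeuP, 22.9 and 20.4 FPKM in the hairpins, and 22.4 FPKM in the control. It fell in NeuP (log2 -0.96 ± 0.19 SE, adjusted p = 0.0278, same test), with no overlap between NeuP and ESC. With the length trend removed the difference was -0.37 (adjusted p = 0.208), and voom gave an adjusted p of 0.0545, so that the call was lost in both. Psmb7, the trypsin-like subunit, had 82.9 and 126 FPKM in NeuP, 152 and 149 FPKM in the hairpins, and 151 FPKM in the control. NeuP was lower in both libraries, but the difference did not pass the test (log2 -0.56 ± 0.33 SE, adjusted p = 0.242).

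Psmb3, a structural beta subunit, had the largest fall of the 14 constitutive core subunits, at 11.999 and 16.7 FPKM in NeuP, 48.1 and 48.2 FPKM in the hairpins, and 44.2 FPKM in the control (log2 -1.58 ± 0.27 SE, adjusted p = 0.0192). With the length trend removed it was at -0.91 and was not called (adjusted p = 0.0749). The 7 alpha subunits had a median difference of -0.55 with 0 called in either direction, and their differences ran from -1.19 in Psma1 to -0.34 in Psma5. The 7 constitutive beta subunits had a median of -0.80 with 3 called lower. With the length trend removed these medians were -0.04 and -0.25. Psma1, an alpha subunit, shows how far the NeuP libraries could differ, at 37.0 and 79.5 FPKM in NeuP, 122 and 131 FPKM in the hairpins, and 125 FPKM in the control (adjusted p = 0.147).

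The immunoproteasome subunits were expressed at low levels. Psmb9, the inducible partner of Psmb6, had 0.818 and 0.465 FPKM in NeuP, 3.82 and 3.00 FPKM in hairpins #2 and #4, and 3.21 FPKM in the control. It fell in NeuP (log2 -1.37 ± 0.24 SE, adjusted p = 0.0194, limma with Benjamini-Hochberg adjustment), with NeuP below every ESC library. Psmb9 reached the 1 FPKM needed for a test only in ESC, the group where it was higher. The call was lost with the length trend removed (log2 -0.74, adjusted p = 0.0664) and without the filter on low values (adjusted p = 0.0652). Psmb10, the partner of Psmb7, had 7.68 and 2.55 FPKM in NeuP, 8.86 and 10.3 FPKM in the hairpins, and 14.045 FPKM in the control. NeuP lay below ESC, its 2 libraries were far apart, and the difference missed the threshold (log2 -1.44 ± 0.61 SE, adjusted p = 0.135). Psmb8, the partner of Psmb5, had 0.026 and 0.034 FPKM in NeuP, 0.343 and 0.291 FPKM in the hairpins, and 0.065 FPKM in the control. These are 1 and 1 reads in NeuP, 13 and 9 reads in the hairpins and 2 reads in the control, too few for the test.

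The share of the inducible subunit in each active-site pair, by FPKM, put these levels side by side. For Psmb9 with Psmb6 it was 1.16% and 0.604% in NeuP, 2.23% and 1.65% in hairpins #2 and #4, and 1.49% in the control. For Psmb10 with Psmb7 it was 8.47% and 1.98% in NeuP, 5.50% and 6.47% in the hairpins, and 8.50% in the control. The constitutive subunit held most of the RNA of each of these pairs in every library. For Psmb8 with Psmb5 it was 0.242% and 0.297% in NeuP, 1.48% and 1.41% in the hairpins, and 0.289% in the control. By reads, the exact (Clopper-Pearson) 95% intervals of that last share were 1.10% to 3.50% and 0.900% to 3.69% in the hairpins and 0.0490% to 1.45% in the control, which overlap in part. Intervals on reads cover counting error only.

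**Figure D3:**
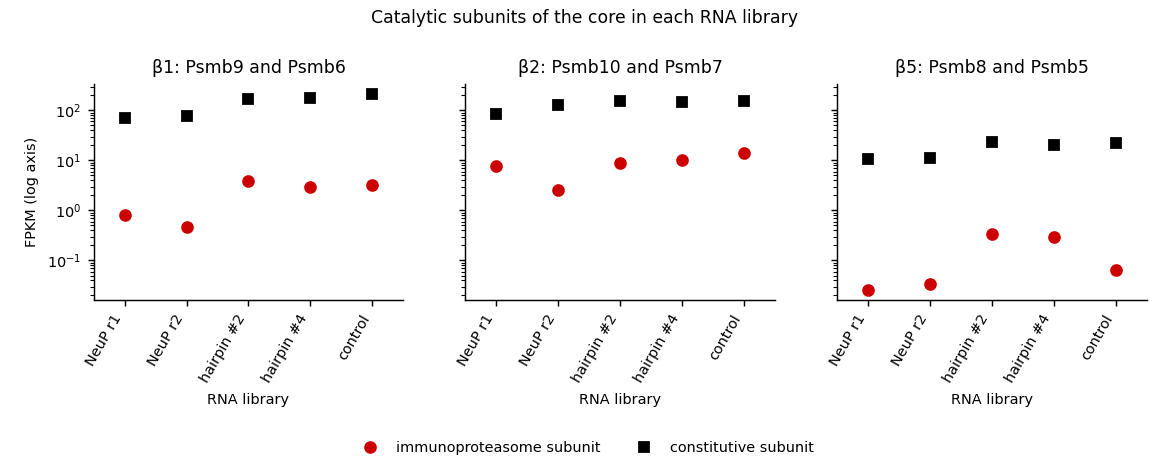
FPKM on a log axis of the constitutive and inducible subunit of each active-site pair in the 5 libraries, with 1 point per library. The constitutive subunit is the higher in every library, and Psmb8 is at or below 0.343 FPKM throughout.

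Markers of leukocytes were read in the same libraries. The 7 leukocyte markers summed to 1.24 and 1.796 FPKM in NeuP, 17.7 and 15.2 FPKM in the hairpins, and 24.1 FPKM in the control. Only Cd68 was above 1 FPKM, and Aif1 and Cx3cr1 were at 0 in all 5 libraries.

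Psma8, the alpha subunit of the testis proteasome, had the largest difference of the family. It had 0.018 and 0 FPKM in NeuP, 10.5 and 11.5 FPKM in hairpins #2 and #4, and 9.50 FPKM in the control. NeuP held 1 read in all, against 406 reads in the control, a ratio per unit of depth of 0.0011 with an exact 95% interval from 0.0 to 0.0062. The gene fell in NeuP (log2 -3.38 ± 0.16 SE, adjusted p = 0.00247, limma with Benjamini-Hochberg adjustment), a value whose size depends on the pseudocount. It was the 1 gene of the family called lower in 13 of 13 alternatives. Psma8 reached the 1 FPKM needed for a test only in ESC, the group where it was higher. Psmb11, the beta subunit of the thymus proteasome, had 0.029 and 0 FPKM in NeuP, 0 and 0.009 FPKM in the hairpins, and 0 FPKM in the control. A count of 0 allows up to 0.028 FPKM in the control, and a lower level could not have been detected.

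In the base, Psmc5, an ATPase, had 45.7 and 61.3 FPKM in NeuP, 101 and 112 FPKM in the hairpins, and 116 FPKM in the control, and fell in NeuP (log2 -1.12 ± 0.28 SE, adjusted p = 0.0432). The other 5 ATPases did not pass the test, and the class median was -0.71. Psmd2, the scaffold that binds substrate shuttles, had 43.3 and 62.9 FPKM in NeuP, 111 and 113 FPKM in the hairpins, and 121 FPKM in the control. It fell by 1.19 on the log2 scale (SE 0.30, adjusted p = 0.0470). Psmd4, a ubiquitin receptor, had 59.5 and 55.6 FPKM in NeuP, 111 and 118 FPKM in the hairpins, and 129 FPKM in the control (log2 -1.15 ± 0.20 SE, adjusted p = 0.0200). Psmd1, the other large scaffold, lay just below ESC, at 71.5 and 78.5 FPKM in NeuP, 89.7 and 95.003 FPKM in the hairpins, and 82.011 FPKM in the control (log2 -0.13 ± 0.20 SE). The calls of Psmc5 and Psmd4 were lost with the length trend removed (adjusted p = 0.126 and 0.0595) and after quantile normalization (0.0779 and 0.0662). Those of Psmc5 and Psmd2 were lost without the filter on low values (0.0857 and 0.101), and that of Psmd2 after quantile normalization (0.0762). All adjusted p-values here are from limma with Benjamini-Hochberg adjustment.

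In the lid, 1 of 8 subunits was called. Psmd3, a structural lid subunit, had 34.3 and 36.6 FPKM in NeuP, 104 and 106 FPKM in the hairpins, and 100.3 FPKM in the control (log2 -1.47 ± 0.19 SE, adjusted p = 0.0110, limma with Benjamini-Hochberg adjustment). Psmd6, another structural subunit, went the other way, with 57.7 and 86.1 FPKM in NeuP, 47.4 and 51.0 FPKM in the hairpins, and 39.4 FPKM in the control. Both NeuP libraries were above all ESC libraries, but the difference missed the threshold (log2 0.82 ± 0.32 SE, adjusted p = 0.116). It passed in 5 of 13 alternatives. These were quantile normalization, scaling by the median of ratios, removal of the length trend, and the fits without NeuP replicate 1 or without replicate 2. In the fits without a NeuP library the spread came from the hairpins alone.

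The 4 core assembly factors had a median difference of -0.48 and the 3 base assembly factors a median of -0.48, with 0 of 7 called in either direction. With the length trend removed the core assembly median was 0.13, the opposite sign. Psmd9 was above ESC in both NeuP libraries (log2 0.36 ± 0.20 SE, adjusted p = 0.220, limma with Benjamini-Hochberg adjustment).

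Among the activators, which open the core in place of the regulatory particle, Psme4, the large nuclear one, fell in NeuP. It had 25.2 and 27.8 FPKM in NeuP, 69.3 and 68.7 FPKM in hairpins #2 and #4, and 57.0 FPKM in the control (log2 -1.08 ± 0.20 SE, adjusted p = 0.0220, limma with Benjamini-Hochberg adjustment). Psme1 and Psme2 form the interferon-inducible activator. Psme1 had 25.4 and 16.8 FPKM in NeuP, 32.8 and 33.5 FPKM in the hairpins, and 40.3 FPKM in the control (adjusted p = 0.0852, same test). Psme2 had 5.99 and 6.36 FPKM in NeuP, 6.63 and 6.46 FPKM in the hairpins, and 6.89 FPKM in the control. Psme2 thus differed by -0.14 on the log2 scale, less than its standard error of 0.17. Psme3, the nuclear activator of the same family, had 31.7 and 61.1 FPKM in NeuP, which straddled the 55.7 and 58.9 FPKM of the hairpins and the 53.3 FPKM of the control. Psmf1, an inhibitor of the core, had 13.2 and 7.87 FPKM in NeuP, 8.76 and 8.69 FPKM in the hairpins, and 8.10 FPKM in the control, so that NeuP and ESC overlapped.

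The second comparison asked whether the RNA of the family differs when Nup153 is knocked down. Of 46 genes, 0 were called lower and 0 higher (limma with Benjamini-Hochberg adjustment), as were 0.0% of all genes tested in each direction. At an unadjusted p under 0.05 there were 0 genes of the family, against 5.92% of all genes, and voom also gave 0 at that threshold (0.647% of all genes lower and 2.85% higher). Without the filter on low values 0 genes of the family were called as well, against 0.729% of all genes lower and 0.229% higher. The median log2 difference was -0.02, with -0.03 and 0.00 in hairpins #2 and #4, against 0.08 for all genes. The NeuP and the knockdown comparison share the 1 control library.

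Both hairpins lay below the control for 20 of 46 genes (43.5%), against 29.5% of all genes, and above it for 18 (39.1%), against 55.0%. The lowest was Psmb10, at 8.86 and 10.3 FPKM in hairpins #2 and #4 and 14.045 FPKM in the control (log2 -0.51 ± 0.61 SE). Psma3 followed, with its 2 hairpins at -0.21 and -0.67 (log2 -0.44 ± 0.43 SE). Psmd8 was at -0.39 ± 0.32 (SE). The highest was Psmg2, a chaperone of the alpha ring, at 35.4 and 36.5 FPKM in the hairpins and 28.2 FPKM in the control (log2 0.34 ± 0.39 SE). Psmd6 (log2 0.31 ± 0.32 SE) and Psme4 (log2 0.27 ± 0.20 SE) came next. Each of these 6 lies within 2 standard errors of 0, in a fit whose spread comes partly from the NeuP libraries. The 2 hairpins were close to each other for most genes. In a limma fit of the 3 ESC libraries alone, 4 genes (8.7%) were higher at an unadjusted p under 0.05, against 24.2% of all genes. These were Psmg2, Psmd6, Psme4 and Psmd7. At that threshold 9 genes (19.6%) were lower, against 9.74% of all genes. The lower genes were Psmb10, Psmd8, Psmb6, Psmg4, Psmb4, Psme1, Psmc6, Psmb1 and Psmd14, and 0 genes passed the adjustment in either direction.

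By class, the medians in the knockdown were -0.09 for alpha subunits, -0.05 for constitutive beta subunits, 0.04 for base ATPases and -0.10 for the other base subunits. They were 0.10 for the lid, -0.05 and 0.08 for core and base assembly, and 0.02 for activators. The lid stayed above 0 in all alternatives (0.01 after scaling by the median of ratios), and the other base subunits stayed below 0. The signs of the remaining classes were not stable. With the length trend removed the medians of alpha, beta and core assembly genes were above 0 (0.04, 0.11 and 0.11), and after scaling by the median of ratios those of base ATPases, base assembly and activators were below 0 (-0.05, -0.0047 and -0.07). Quantile normalization put base assembly at -0.04 and activators at -0.05. Psmb8 had 22 reads in the hairpins together and 2 in the control, a ratio per unit of depth of 4.93 with an exact 95% interval from 1.21 to 43.2, which covers counting error only. Without the filter on low values its log2 difference was 0.31 ± 0.03 (SE, adjusted p = 0.172, limma with Benjamini-Hochberg adjustment).

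**Figure D4:**
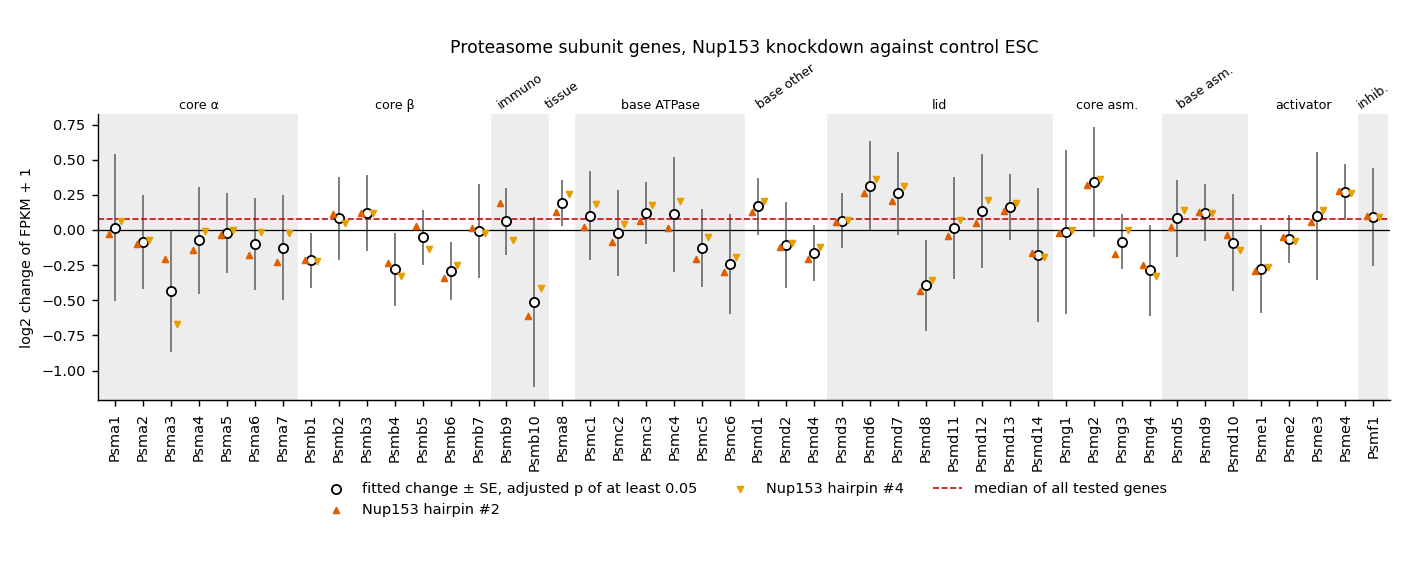
Difference between Nup153 knockdown and control ESC in log2(FPKM + 1) for each tested gene, by class, with the fitted value, its standard error as a bar, the 2 hairpins as coloured points and the median of all genes tested as a dashed line. Values run from -0.51 (Psmb10) to 0.34 (Psmg2) and lie on both sides of 0.

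Ring1B and Cbx7 belong to the Polycomb complex PRC1, which silences developmental genes, and DamID marks sites where a tagged protein has been near DNA. A gene was counted when a peak shared at least 1 base with the 2 kb on either side of its start (mm9, as in the deposited files). Ring1B peaks were near 7 of 48 family genes (14.6%) in hairpin #2, against 23.98% of other genes, and near 1 (2.08%) in hairpin #4, against 9.26%. They were near 3 (6.25%) in NeuP, against 10.4%, and near 3 (6.25%) in control ESC, against 8.10%. Cbx7 peaks in control ESC were near 4 genes (8.33%), against 13.2%. Oct4 ChIP peaks were near 0 genes in hairpin #2 and 0 in control ESC, against 0.714% and 0.734% of other genes. Nup153 DamID peaks were near Psmb1, Psmb3 and Psmc5 (6.25%, against 5.91%), and Oct4 DamID peaks near Psma3, Psma4 and Psmd3 (6.25%, against 2.80%).

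Peaks of both Polycomb proteins lay at the immunoproteasome genes Psmb8 and Psmb9. At Psmb8 (start at position 34335140 on chromosome 17), a Cbx7 peak of control ESC covered 34334809 to 34336347. Ring1B peaks covered 34334919 to 34336000 in hairpin #2 and 34335134 to 34335634 in hairpin #4. At Psmb9 (start at 34324275, minus strand), a Cbx7 peak covered 34323304 to 34324189, with its near edge 86 bases inside the gene, and a Ring1B peak of hairpin #2 covered 34323563 to 34325108. No Ring1B peak was listed at either gene in NeuP or in control ESC. The Ring1B libraries held 33.2 M tags in NeuP, 30.8 M in hairpin #2, 9.95 M in hairpin #4 and 4.99 M in control ESC, so for the ESC lists a difference in binding and in depth cannot be told apart. Each ChIP list comes from 1 library and gives no peak height. The start of Psmb9 lies 226 bases from that of Tap1, the peptide transporter of antigen display, on the other strand.

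**Figure D5:**
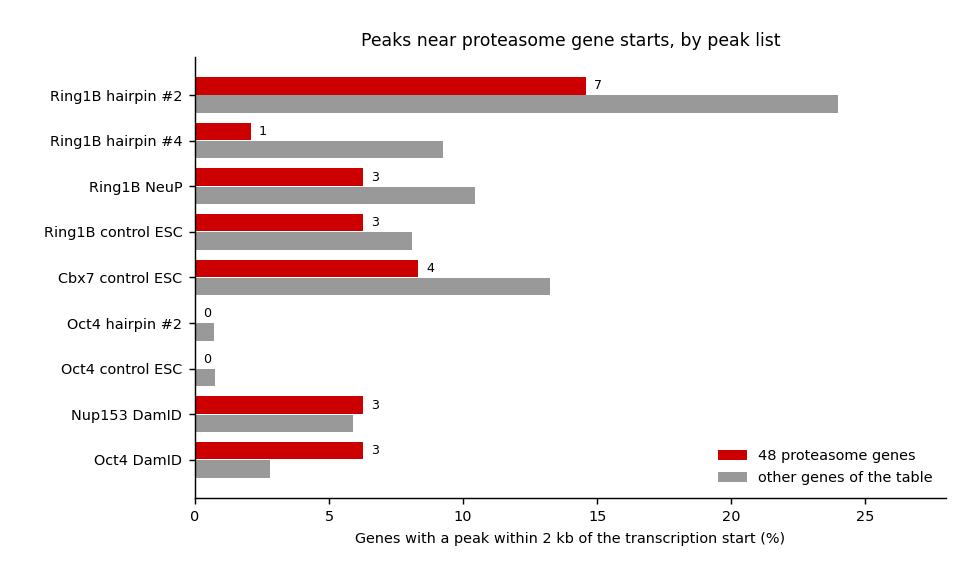
Percent of the 48 proteasome genes and of the other genes of the table with a peak within 2 kb of the start, for each of the 9 peak lists, with the number of family genes beside each bar. In the Nup153 DamID list the family, at 6.25%, is close to the other genes, at 5.91%. It is above them in the Oct4 DamID list (6.25%, against 2.80%) and below them in the 7 ChIP lists. Each bar of the family rests on 0 to 7 genes.

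Promoters were searched on both strands for motifs of known regulators, in 300 bases from 250 before to 50 after the start. TGACNNNGC, the core of the element bound by NFE2L1, the activator of proteasome genes, was in 6 of 43 family promoters (13.95%) and in 12.4% of other promoters. The 6 belong to Psmb5, Psmb6, Psmc6, Psmd12, Psmd9 and Psme4. CCAAT was in 32.6% of family promoters and 37.4% of others, and GGAA in 100% and 96.0%. Of motifs chosen later, the interferon-stimulated response element core (GAAA, 2 bases, GAAA) was in 5 of 43 family promoters (11.6%) and 3.43% of others. The 5 belong to Psmb3, Psmd4, Psmd9, Psme1 and Psmg4, and Psmb8, Psmb9 and Psmb10 had no match. In the 250 bases before the start alone it was in 3 of 43 (6.98%), against 2.97%. TTCNNNGAA, also chosen later, was in 6.98% of family promoters and 8.30% of others. Matches of different motifs may overlap.

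Genes of the wider pathway were read in the same fit, for NeuP against control ESC, where 18.3% of all genes rose and 24.9% fell, with a median of -0.26. Of 14 tested proteins that associate with the proteasome, 1 rose and 1 fell, with a median of -0.87: Ubqln2, a shuttle, rose by 1.91 on the log2 scale (adjusted p = 0.0244), and Adrm1, a ubiquitin receptor, fell by 1.28 (adjusted p = 0.0312). Uchl5, a deubiquitinase, differed by -1.48 without passing the test (adjusted p = 0.142). Of 8 regulators, 2 rose and 1 fell, with a median of -0.21. These were Ngly1, the deglycosylase that processes Nfe2l1 (2.19), Keap1, an adaptor that targets Nfe2l2 for degradation (1.21), and Nfe2l3, a relative of Nfe2l1 (-0.82). Nfe2l1 itself had 40.3 and 30.7 FPKM in NeuP, 52.8 and 53.3 FPKM in the hairpins, and 63.3 FPKM in the control (adjusted p = 0.0698). Of 6 ubiquitin and E1 genes, 0 rose and 3 fell, with a median of -1.24, among them the activating enzymes Uba6 (-1.46) and Uba1 (-1.37). Of 11 antigen processing genes, 1 rose and 3 fell, with a median of -0.51: Erap1, a peptide trimmer (1.95), Irf8, a transcription factor (-2.16), Calr, a chaperone (-1.74), and Tap1 (-1.54). Erap1 reached the 1 FPKM needed for a test only in NeuP, the group where it was higher. Irf8 reached it only in ESC, and Nfe2l3 only in hairpin #4, at 1.02 FPKM. All differences are limma values with Benjamini-Hochberg adjustment.

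In the knockdown 0 genes of these 4 lists were called. At an unadjusted p under 0.05 (limma) there were 0 of 14, 1 of 8, 0 of 6 and 2 of 11, against 5.92% of all genes. Those 3 genes were Keap1 (log2 0.84), Irf8 (-0.72) and Nlrc5, an activator of class I genes (0.68). Nlrc5 had 1.58 and 1.14 FPKM in hairpins #2 and #4 and 0.469 FPKM in the control. It reached the 1 FPKM needed for a test only in the hairpins, the group where it was higher. Other large differences of the lists were Ubqln2 (0.53) and Shfm1 (-0.45) among associated proteins, Ngly1 (0.36) among regulators, Ubb (-0.42) among ubiquitin genes, and Calr (-0.87) in antigen processing. The list medians were -0.07, 0.10, -0.28 and 0.04, in the order given, against 0.08 for all genes tested.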

How the data were processed

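RNA values were deposited as FPKM, 1 transcript per gene symbol. Per the submitters' processing notes, tools included CASAVA 1.8.2, STAR 2.2.0c, Bowtie2 2.1.0, HOMER 4.6 and edgeR, with build mm9. Whether counting used strand, and how reads of copied genes were assigned, is not stated. The authors' 9 peak lists were used as start and end positions, a unit of bases without scores. Depth was recovered from the deposited FPKM, whose low values were whole multiples of 1 read (100% within 0.1 of a read).

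Tests used limma 3.58.1 (R 4.3.3) on log2(FPKM + 1) with a mean-variance trend, two-sided, with Benjamini-Hochberg adjustment over the 13750 genes with at least 1 FPKM in at least 1 library. This scale understates changes of low genes. All 5 libraries entered 1 fit with 3 groups, with 2 residual degrees of freedom. The single control library was assumed to vary like the others, and the 2 hairpins were taken as replicates. voom on recovered reads was an alternative. The fit was tested on simulated data with independent normal noise, which does not show that the calls on these libraries are right. Peaks, promoters and shares were computed with pandas 2.3.3, scipy 1.17.1 and numpy 2.4.6 (Python 3.11.15), and figures drawn with matplotlib 3.10.9.

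Per library, values are named for active-site and tissue-specific subunits, activators and inhibitor, called members, the 3 largest and 3 smallest knockdown changes, and the extremes of each class. List genes are named where called or among the 2 largest changes, except that some results are not reported here. Psma1, Psmb7, Psmd1, Nfe2l1 and the leading genes by unadjusted p were also named. The family and lists were chosen with earlier results of these data known.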

Additional observations from a re-analysis of the deposited data

How the results depend on the processing

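Of 46 tested genes, 10 were called lower in NeuP. This number was 5 with the length trend removed (all genes 24.4%) and 22 with all 3 ESC libraries as the reference (37.9%). Leaving out 1 library gave 1 to 39, and the share of all genes moved as well, as given above. Called higher (0) was 1 each after quantile normalization (all genes 21.1%), scaling by the median of ratios (19.9%) and removing the length trend (16.3%). The gene was Psmd6 each time. The count called higher also moved without NeuP replicate 1 or 2. The NeuP median was -0.33 after quantile normalization and -0.31 without the length trend. The scaling put the median of all genes at -0.06 (quantile) and -0.10 (median of ratios), against -0.26 as deposited. The knockdown median was -0.10 after scaling by the median of ratios and 0.086 without the length trend, against -0.02 as deposited, so its sign changed. Below all ESC libraries were 24 genes after quantile normalization (all genes 39.4%) and 20 without the length trend (47.5%). Above them were 4 without the length trend (29.5%). By reads, the Psmb9 share was 1.51% in the knockdown and 1.16% in the control, the Psmb10 share 7.72% and 10.9%, and the Psmb8 share 2.01% in the knockdown and 0.375% in NeuP. Within 5 kb, Nup153 DamID peaks were near 5 genes (10.4%, against 7.37% of other genes). Oct4 DamID peaks were near 6 (12.5%, against 4.07%) and Ring1B peaks of hairpin #4 near 2 (4.17%, against 13.2%). The other 85 values of these kinds stayed within their limits, no called gene changed sign, and the cause of the moves was not tested. Psmb8 had 1 to 13 reads per library, which limits its share. No paired analysis was possible because the control has 1 library, so the groups compared share fewer than 2 replicate numbers.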

Other observations

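Polycomb peaks also lay at family genes outside the immunoproteasome. Ring1B peaks covered the starts of Psme2, a subunit of the interferon-inducible activator, and Psmd13, a lid subunit, in NeuP and in hairpin #2, and the start of Psmf1 in NeuP. In control ESC they covered the starts of Psmd11 and Psmd9 and lay 1172 bases before that of Psmd1. Ring1B peaks of hairpin #2 also covered the start of Psmg4 and lay 17 bases before that of Psmg1 and 479 bases after that of Psmd12. Besides Psmb8 and Psmb9, the Cbx7 peaks of control ESC lay 101 bases after the start of Psmb11 and 1719 bases after that of Psma3. Summed over the 48 genes, the level was 1810 and 2503 FPKM in NeuP replicates 1 and 2, 3359 and 3518 FPKM in hairpins #2 and #4, and 3574 FPKM in the control. As a share of the summed FPKM of the table this was 0.726% and 0.971% in NeuP, 1.08% and 1.13% in the hairpins, and 1.10% in the control.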
